A study of Mus musculus with 24 samples.

Results

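Snord43 is a small nucleolar RNA (snoRNA) gene that lies in an intron of Rpl3, the gene of a protein of the large ribosomal subunit. It was chosen because its row held most of the counts that the annotation assigns to the miRNA biotype, and it is 1 of 55335 genes in the count table. That choice rested on its share of counts in the libraries, so the shares are described below without a test of the choice itself. Small RNA was sequenced from mouse embryonic stem cells (mESC) and from neural progenitor cells (NPC) made from them by differentiation. The study's title links expansion of the CAG repeat in Htt, whose product is huntingtin, with faults in splicing.

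Each cell type had 6 Htt genotypes with 2 libraries each, which gives 12 groups and 24 libraries. The genotypes were an Htt knockout (KO), wild type (WT) and 4 heterozygous knock-in lines with CAG tracts of different length, called Q20, Q50, Q92 and Q111. The number in a knock-in name is the repeat number in the sample titles, although the growth protocol gives 89 repeats in place of 92. The mESC grew with leukemia inhibitory factor on irradiated mouse fibroblasts, and the NPC grew on laminin with FGF and EGF. No age applies to these cultured lines, and the labels do not say whether a line is 1 clone. The libraries of a group are described as biological samples, without a statement that they came from separate cultures, so p-values measure only the spread between these samples.

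Most snoRNAs of vertebrates are cut from introns of other genes, often genes of ribosomal proteins, after the intron has been spliced out. Box C/D snoRNAs carry short conserved motifs, box C and box D, that bind fibrillarin, Nop56, Nop58 and Snu13, and the particle places methyl groups on ribosomal RNA at sites chosen by base pairing. Snord43 belongs to this class by name, and its human counterpart, often called RNU43, is in use as a reference RNA when microRNAs are measured.

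Snord43 is printed here with Snord83b, the other abundant snoRNA of the same host gene, because both carry the box C and box D letters of a snoRNA and only the first is filed as a microRNA gene. Capitals mark NTGATGA (box C, N being any base) and every CTGA (box D) after it. The sequences are the GENCODE transcripts on GRCm38, both on the minus strand and written 5′ to 3′.
Snord43: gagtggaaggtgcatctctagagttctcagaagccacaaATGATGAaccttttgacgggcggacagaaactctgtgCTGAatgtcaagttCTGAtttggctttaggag
Snord83b: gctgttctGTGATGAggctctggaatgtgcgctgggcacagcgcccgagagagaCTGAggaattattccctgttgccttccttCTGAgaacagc
In Snord43 the box C letters stand at bases 40 to 46 and CTGA starts at bases 77 and 91. In Snord83b the box C letters stand at bases 9 to 15 and CTGA starts at bases 55 and 84. The same order of letters on the transcript strand was found in 359 of 1507 snoRNA transcripts (23.8%) and in 11 of 2202 transcripts of miRNA biotype (0.500%). Among transcripts of any biotype within 8 bases of the length of Snord43 it was found in 22 of 1730 (1.27%). A match to these letters is a description of the sequence and not evidence of a bound protein.

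The GENCODE M21 annotation gives Snord43 (ENSMUSG00000105167) as a 108-base gene at chr15:80082847-80082954 on GRCm38, with the biotype miRNA. RefSeq gives the same symbol the type snoRNA and a shorter interval of 48 bases, chr15:80082859-80082906. That interval is bases 49 to 96 of the GENCODE gene, so it holds both CTGA motifs and leaves out the box C letters. The reads were 50 bases long, and the files do not show where within the gene they lay. Snord43 lies in intron 1 of the 10-exon coding transcript of Rpl3, and no exon of another gene overlaps it. None of its stretches of 30 bases occurs in another annotated transcript (0 genes shared any). Copies outside annotated transcripts and the strand setting of the counting were not tested.

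Rpl3 (chr15:80077791-80091868, minus strand) holds 4 annotated small genes, which differed widely in counts. Snord43 received 1899101 counts over all libraries and Snord83b, in intron 7 (chr15:80078498-80078591), received 486750. Gm24204, annotated as an snRNA, received 1 count, and Gm22077, annotated as a snoRNA, received 0. An annotated exon of Rpl3 overlaps Gm22077, and how reads shared between genes were counted is not given, so the 0 may not show absence of the RNA. Rpl3 itself received 142 counts over the 24 libraries, with 5 to 15 per mESC library and 1 to 5 per NPC library. The level of the host mRNA cannot be read from so few counts in small RNA libraries.

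The mESC libraries held 642384 to 2360434 counts each and the NPC libraries 342022 to 682113. The mESC markers fixed for the check summed to 940 to 3679 CPM (counts divided by the library total, times 1e6) in mESC, with 15 of 15 detected. They summed to 4.23 to 13.7 CPM in the NPC other than Q20 (2 of 15 detected) and to 426 to 445 CPM in the Q20 NPC (12 of 15 detected), so the Q20 NPC libraries stand apart from the other NPC. The neural markers were detected for 7 of 10 and summed to 0.438 to 10.4 CPM in mESC, 127 to 173 CPM in Q20 NPC and 205 to 694 CPM in the other NPC; Mir124a-1, Mir181b-1 and Mir9-2 were at 0 in all of them. Fibroblast markers, which the feeder layer could carry in, summed to 8.35 to 24.9 CPM in mESC with 4 of 9 detected, and Col1a1, Col1a2 and Col3a1 were at 0. Htt, the targeted gene, had 3 and 2 counts in KO mESC against 8 and 8 in WT mESC, and 1 and 1 in KO NPC against 9 and 2 in WT NPC.

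Over all libraries Snord43 took 7.59% of the 25027120 counts. It ranked 3 among all genes, behind the lincRNA Gm26917 (15.1%) and the snoRNA Snord49a (11.5%). Within the miRNA biotype it held 96.96% of 1958575 counts, while the other rows together held 59474. Of the 2202 genes of that biotype, 420 had a count in some library. The next rows were Mir293 with 20928 counts, Mir292 with 9248, Mir302b with 3059, Mir877 with 2934 and Mir5099 with 2031. Mir292, Mir293 and Mir302b belong to microRNA clusters known for their expression in pluripotent cells. Snord43 had 90.7 times the counts of Mir293 in all. That order is the order in mESC, where Mir293 had 20821 counts. In NPC, where Mir293 had 107, the next row was Mir181a-1 with 1138 counts, and Snord43 had 119 times as many.

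The dominance of Snord43 held in every library. It made up 89.3% to 98.4% of the miRNA-biotype counts in mESC and 91.7% to 97.8% in NPC. The other miRNA-biotype rows amounted to 0.166% to 0.500% of all counts in mESC and 0.0693% to 0.166% in NPC. Any total of the miRNA biotype in these libraries is therefore close to the Snord43 count itself.

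**Figure D1:**
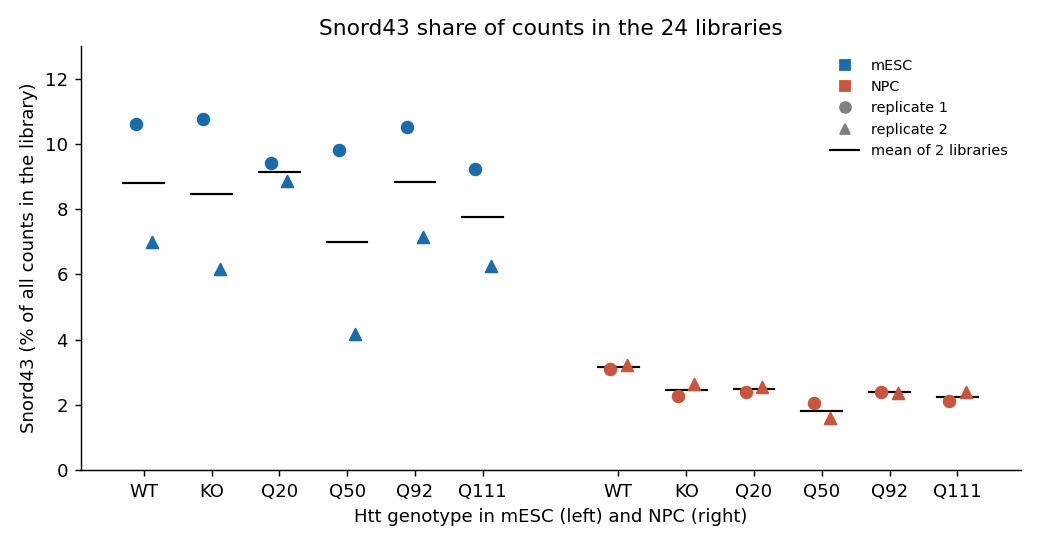
Share of all counts that fell on Snord43 (y axis, percent) in each of the 24 libraries, by genotype (x axis) and cell type, with 1 point per library. The 12 mESC libraries lie between 4.19% and 10.8% and the 12 NPC libraries between 1.59% and 3.22%, with no overlap.

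In mESC the share of all counts on Snord43 was 8.33% ± 2.12 (SD, n = 12). The KO libraries had 10.8% in replicate 1 and 6.18% in replicate 2. The WT libraries had 10.6% and 6.98%. The KO values bracket those of WT, so the groups overlap. Q20 had 9.42% and 8.86%, the closest pair of the mESC groups. Q50 had 9.81% and 4.19%, the widest pair. Q92 had 10.5% and 7.15%, and Q111 had 9.24% and 6.25%. In order of their means the mESC groups were Q20 (9.14%), Q92 (8.83%), WT (8.79%), KO (8.47%), Q111 (7.74%) and Q50 (7.00%). Every neighbouring pair of mESC groups in that order overlaps.

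In NPC the share was 2.43% ± 0.436 (SD, n = 12). WT had 3.09% and 3.22%, and both values lie above those of all 10 other NPC libraries. KO had 2.28% and 2.65%. Q20 had 2.40% and 2.55%. These pairs overlap each other and lie below WT. Q50 had 2.05% and 1.59%, the lowest of the NPC groups. Q92 had 2.40% and 2.37%, and Q111 had 2.12% and 2.40%. The order of means was WT (3.16%), Q20 (2.48%), KO (2.46%), Q92 (2.39%), Q111 (2.26%) and Q50 (1.82%). Neighbours from Q20 to Q111 overlap, while WT and Q50 are separated from their neighbours. The 95% Wilson interval of a share was at most 0.106 percentage points wide, which covers counting error only. Snord43 ranked 3 to 7 among all genes in the mESC libraries and 8 to 16 in the NPC libraries.

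Snord43 fell in NPC relative to mESC. In edgeR's quasi-likelihood test on counts scaled by TMM, the log2 change was -2.16 ± 0.17 (SE, 12 libraries each), a level 4.48 times lower (95% interval -2.52 to -1.81, edgeR adjusted p = 2.01e-10). In this comparison 58.4% of the 904 genes tested were called, with 28% lower and 30.4% higher in NPC. Snord43 had the 60th lowest change and the 35th smallest p among the 904, while the median change of all genes was -0.02. Scaling by library totals moved that median to 0.32 and gave -1.79 for Snord43. Replicate 1 libraries alone gave -2.67 and replicate 2 libraries alone gave -1.64. Without both Q20 groups the change was -2.10 (edgeR adjusted p = 2.62e-08).

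The fall was also seen line by line. The share of all counts dropped by 5.90 ± 0.235 percentage points (SE over 6 lines) from mESC to NPC, and it was lower in NPC in 6 of 6 lines. An exact two-sided sign-flip permutation test over the lines gave p = 0.03125, the smallest that 6 lines allow. After Benjamini-Hochberg adjustment over the 3 values tested this way, the p-value of this test was also 0.03125. All 3 values use the same Snord43 counts, and Snord43 was chosen by its share with earlier results known. Their p-values are therefore not independent of that choice or of each other. As a ratio of the geometric means of each group's libraries, the share in mESC was from 2.73 times that in NPC (WT) to 3.69 times (Q20). Measured against snoRNA-biotype counts plus Snord43 itself, the share was 11.3% ± 2.36 (SD, n = 12) in mESC, ranging from 6.47% to 14.7%. The NPC value was 4.34% ± 0.393, ranging from 3.64% to 5.11%. The difference tested by line used another measure, Snord43 as a percentage of snoRNA-biotype counts without Snord43 in the denominator. That difference was -8.28 ± 0.460 percentage points, lower in 6 of 6 lines (exact sign-flip permutation p = 0.03125). Fewer cells that express a gene and less RNA per cell cannot be told apart in these bulk libraries.

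Other measured properties of the libraries also differed between the cell types. All but 1 of the NPC libraries had a lower total than every mESC library. The deepest NPC library, WT replicate 1 with 682113 counts, had 3.09% Snord43, and the shallowest mESC library, Q50 replicate 2 with 642384 counts, had 4.19%. Y RNAs, small RNAs bound by the Ro60 protein, took 13.2% to 40.6% of counts in NPC and 0.684% to 1.69% in mESC. With the Y RNA rows removed, Snord43 had a mean share of 8.42% in mESC and 3.20% in NPC, and edgeR gave a log2 change of -2.38 (adjusted p = 8.36e-11). The part of library depth in the fall of Snord43 was not tested.

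**Figure D2:**
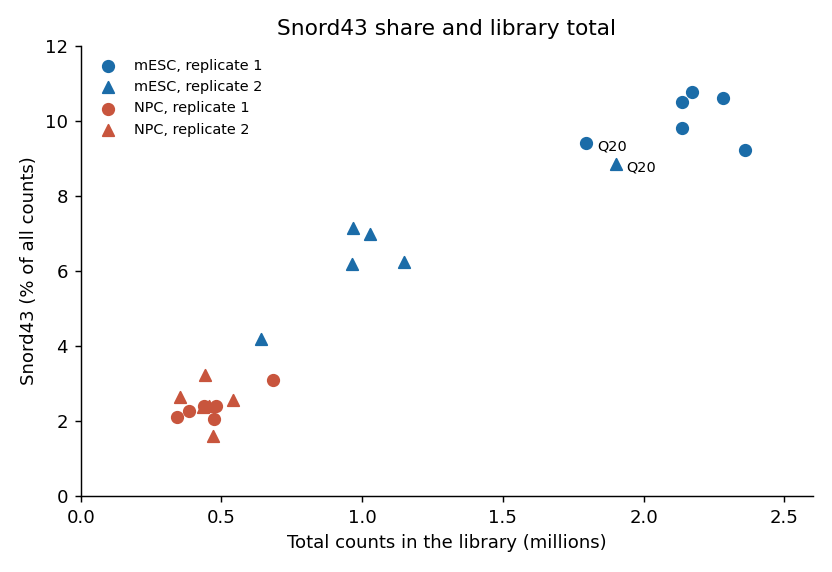
Share of counts on Snord43 (y axis, percent) against the total count of the library (x axis, counts divided by 1e6), with 1 point per library, coloured by cell type and shaped by replicate number. In mESC, replicate 2 of the 5 lines other than Q20 lies between 642384 and 1149003 counts and between 4.19% and 7.15%, while replicate 1 of those lines is deeper and lies between 9.24% and 10.8%.

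Within mESC the replicate number went with the level of Snord43. In the 5 lines other than Q20, replicate 1 had totals of 2134729 to 2360434 counts and 9.24% to 10.8% Snord43. Replicate 2 of those lines had totals of 642384 to 1149003 counts and 4.19% to 7.15% Snord43. Both Q20 libraries were deep, with 1795879 and 1901042 counts, and had 9.42% and 8.86% Snord43. Replicate 1 exceeded replicate 2 in 6 of 6 mESC lines, by a ratio of 1.06 in Q20 to 2.34 in Q50, but in 2 of 6 NPC lines. The other miRNA-biotype rows moved the other way in mESC, from 0.166% to 0.237% of counts in replicate 1 to 0.335% to 0.500% in replicate 2 of the same 5 lines. These are descriptions with no test. The labels name no batch, and total and replicate number cannot be told apart in the lines other than Q20.

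Snord83b, which lies in another intron of the same host gene, served as a comparison within Rpl3. Its mean share over 12 libraries was 1.88% ± 0.309 (SD) in mESC, with a range of 1.17% to 2.25%. In NPC it was 2.34% ± 0.353, with a range of 1.74% to 2.89% that overlaps that of mESC. Its log2 change from mESC to NPC was -0.02 ± 0.09 (SE, edgeR adjusted p = 0.886). Its direction depended on the scaling, with 0.31 on library totals (edgeR adjusted p = 0.00158) and 0.60 on snoRNA-biotype totals (3.19e-06), while Snord43 fell on each (-1.79 and -1.50). Both genes lie in the same host transcript, and the difference between them was measured as a ratio within each library.

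The ratio of Snord43 counts to Snord83b counts averaged 4.65 ± 1.82 (SD, n = 12) in mESC, against 1.06 ± 0.248 in NPC. In mESC it was 5.76 and 2.93 in KO, 5.40 and 3.10 in WT, and 4.79 and 4.29 in Q20. The Q50 libraries had 8.39 and 2.47, those of Q92 had 7.05 and 3.61, and those of Q111 had 5.22 and 2.84. Replicate 1 was the higher of each mESC pair, as for the share. In NPC it was 0.988 and 1.10 in KO, 1.22 and 1.43 in WT, and 1.16 and 1.22 in Q20. The Q50 libraries had 0.708 and 0.577, the Q92 pair 0.936 and 0.912, and the Q111 pair 1.22 and 1.29. Snord43 exceeded Snord83b in 12 of 12 mESC libraries and in 7 of 12 NPC libraries, and every mESC ratio lay above every NPC ratio.

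**Figure D3:**
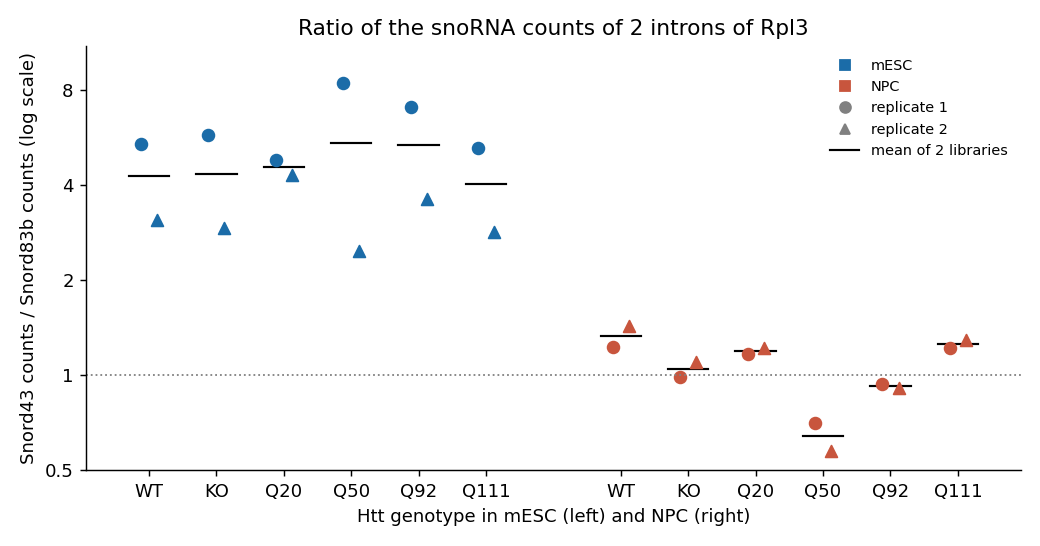
Ratio of Snord43 counts to Snord83b counts (y axis, log scale) in each library, by genotype (x axis) and cell type, with 1 point per library. The mESC ratios run from 2.47 to 8.39 and the NPC ratios from 0.577 to 1.43, so the cell types do not overlap.

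The log2 ratio of Snord43 to the other small RNAs of Rpl3 was lower in NPC by -2.07 ± 0.20 (SE over 6 lines), a ratio 4.21 times lower. The direction was the same in 6 of 6 lines (exact two-sided sign-flip permutation p = 0.03125, the smallest possible). By mean log2 ratios, the ratio in mESC was 3.08 times that in NPC in Q111, 3.10 times in WT and 3.80 times in Q20. It was 3.93 times in KO, 5.46 times in Q92 and 7.12 times in Q50. The Q50 value goes with a Snord83b share that lay below WT in mESC and above WT in NPC. In Q50 mESC Snord83b had 1.17% and 1.70% of counts against 1.96% and 2.25% in WT. By edgeR its log2 difference was -0.80 with an SE of 0.36 (unadjusted p = 0.0413, adjusted p = 0.999). In Q50 NPC it had 2.89% and 2.76% against 2.53% and 2.26%. A ratio within a library does not depend on how the library is scaled, but it shows unequal change and not which of the pair changed.

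Other snoRNA genes named Snord that lie in genes of ribosomal proteins were compared next. Of 21 besides Snord43, 12 had enough counts to be tested. In NPC 7 of the 12 fell, 2 rose and 3 were not called, in a comparison where 28% of all genes tested fell and 30.4% rose. Snord58b (in Rpl17) fell by 1.03 and Snord42a (in Rpl23a) by 0.94 on the log2 scale, the lowest changes of the 12 (edgeR adjusted p = 1.04e-06 and 1.18e-05). Snord34, in Rpl13a, fell by 0.50. Snord32a, which lies in Rpl13a like Snord34, rose by 0.46, and Snord15a, in Rps3, rose by 0.38. The median over the 12 was -0.39 beside -0.02 for all 904 genes. These counts rest on TMM: 4 fell and 3 rose on library totals, and 1 fell (Snord58b, by 0.39) and 5 rose on snoRNA-biotype totals, which moved the median of all genes to 0.60. On those scalings 509 and 559 of the 904 genes were called. With its change of -2.16, Snord43 lay below each of the 12, a difference that was not tested.

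A list of small RNAs that are used or proposed as reference RNAs in microRNA measurements gave 8 genes with counts, of which 6 fell in NPC and 2 rose, where 58.4% of all genes tested were called. Snord7 changed by -1.75, Snord49a by -0.97, Snord70 by -0.83, Snord65 by -0.36 and Snord72 by -0.31, and Snord58b is given above. Snord7 had too few counts to be tested in the fit of the NPC libraries alone, where the other 7 were tested. Its fall therefore cannot be separated from the filter, although it is counted among those that fell here and on the scalings below. Rny3, a Y RNA, rose by 1.95 and Snord61 rose by 1.28. Their median was -0.60. On library totals 4 fell and 2 rose, and on snoRNA-biotype totals 3 fell and 4 rose, with Snord65 and Snord72 turning to 0.26 and 0.33. On the TMM-scaled CPM scale the highest library of Snord43 was 9.29 times the lowest, from 16211 CPM in a Q92 NPC library to 150675 CPM in a Q92 mESC library. Within a cell type that ratio was 3.90 in mESC and 1.98 in NPC. The same ratio over all libraries was 2.71 for Snord65, 2.77 for Snord72, 3.25 for Snord83b, 3.89 for Snord49a and 7.78 for Rny3. Snord7 had 40.1, but its lowest library had 1 count.

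Of 12 listed gene symbols for proteins that build or load box C/D particles, 11 were in the count table. All 11 had counts, but only Nop58 had enough to be tested in NPC against mESC. Nop58 had 12 to 32 counts per mESC library and 0 to 5 per NPC library, and its log2 change in NPC was -2.13 ± 0.35 (SE). With at most 5 counts in any NPC library, it passed the filter (minimum count 10) through its mESC libraries alone. A fall was thereby favoured in advance, so the change is a description and no p-value is given. Nop58 also carries snoRNA genes in its introns, and in small RNA libraries its counts are fragments and not a measure of its mRNA or protein.

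**Figure D4:**
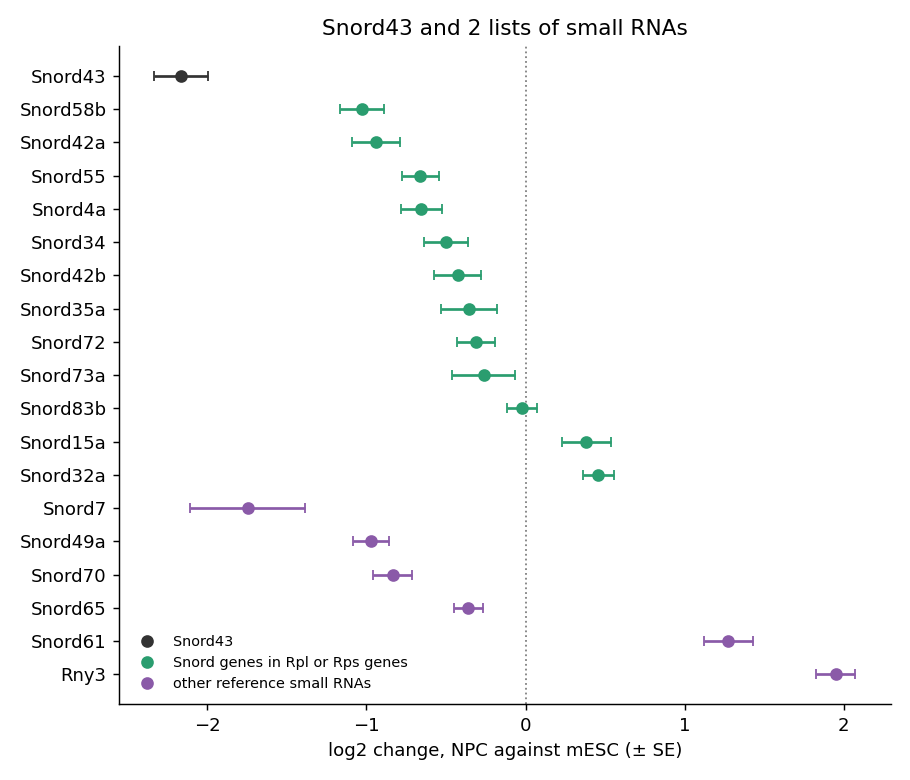
Log2 change from mESC to NPC (x axis, edgeR with TMM, bars are SE) for Snord43, for the Snord genes in ribosomal protein genes and for the reference small RNAs (y axis). Snord43 stands at -2.16 and Snord58b at -1.03, while Rny3 stands at 1.95. Snord7, which had too few counts to be tested in the NPC libraries alone, stands at -1.75.

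The genes whose levels followed Snord43 most closely were found by Pearson correlation of log2 TMM-scaled CPM among 139 other genes with at least 10 counts in every library. The points share library, depth and scaling, so the values are descriptions. Over the 24 libraries the closest were Gm23301 (r = 0.979), Gm24494 (0.960), Snord110 (0.948), Snord58b (0.947) and Gm24837 (0.938), and GENCODE lists each as a snoRNA. After the mean of each cell type was removed, the closest were Gm24494 (0.935), Gm23301 (0.922), Gm25970 (0.889), Gm24837 (0.880) and Snord73a (0.862). Gm25970 had a correlation of -0.51 over all libraries, since it was higher in NPC (0.493% of counts) than in mESC (0.174%). Snord83b, which lies in the same host as Snord43, had 0.181 over all libraries and 0.391 within cell types. The hosts of the closest genes are Rpl17 (Gm23301 and Snord58b), Rabggtb (Gm24494), Nop56 (Snord110), Ubap2 (Gm24837), Prpf39 (Gm25970) and Rps3a1 (Snord73a).

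Among mESC no genotype was called different from WT for Snord43. The log2 changes from WT were -0.07 for KO, 0.25 for Q20, -0.54 for Q50, 0.25 for Q92 and -0.30 for Q111, each with an SE of 0.58, and the edgeR adjusted p was 0.996 or higher for each. The 95% intervals were wide, reaching from -1.29 to 1.15 for KO and from -1.77 to 0.68 for Q50. Of the 1766 genes tested, 0.0566% were called for Q20 and 0% for each of the others, where 17 (KO), 47 (Q50), 48 (Q92) and 66 (Q111) genes had an unadjusted p under 0.05. DESeq2 called 9 genes for Q20, 1 for Q111 and 0 for the other genotypes. A test of any difference among the genotypes gave an edgeR adjusted p of 1.00 for Snord43 (0.0566% called). Leaving out 1 library turned the sign in each of the 5 comparisons. Without WT replicate 1, for example, the KO change was 0.45 in place of -0.07, and without Q50 replicate 2 the Q50 change was 0.03.

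In NPC each of the 5 genotypes had a lower level of Snord43 than WT. KO fell by 0.56 ± 0.11 on the log2 scale (SE, edgeR adjusted p = 0.00800), in a comparison where 1.36% of 441 genes were called and 1.13% were called lower. Q92 fell by 0.62 ± 0.11 (edgeR adjusted p = 0.00146, 18.8% called, 10.2% lower) and Q50 fell by 0.53 ± 0.11 (edgeR adjusted p = 0.00911, 6.58% called, 1.36% lower). Q20 fell by 0.35 ± 0.11 (edgeR adjusted p = 0.0418, 12.7% called, 4.08% lower) and Q111 fell by 0.35 ± 0.11 (edgeR adjusted p = 0.0408, 10.9% called, 5.9% lower). The median change over all 441 genes lay between 0.04 and 0.24 in these comparisons. The 5 comparisons share the same pair of WT libraries, so they are not independent of each other. A test of any difference among the NPC genotypes gave an edgeR adjusted p of 0.00177, with 37.2% of genes called. The KO difference was already known when Snord43 was chosen.

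**Figure D5:**
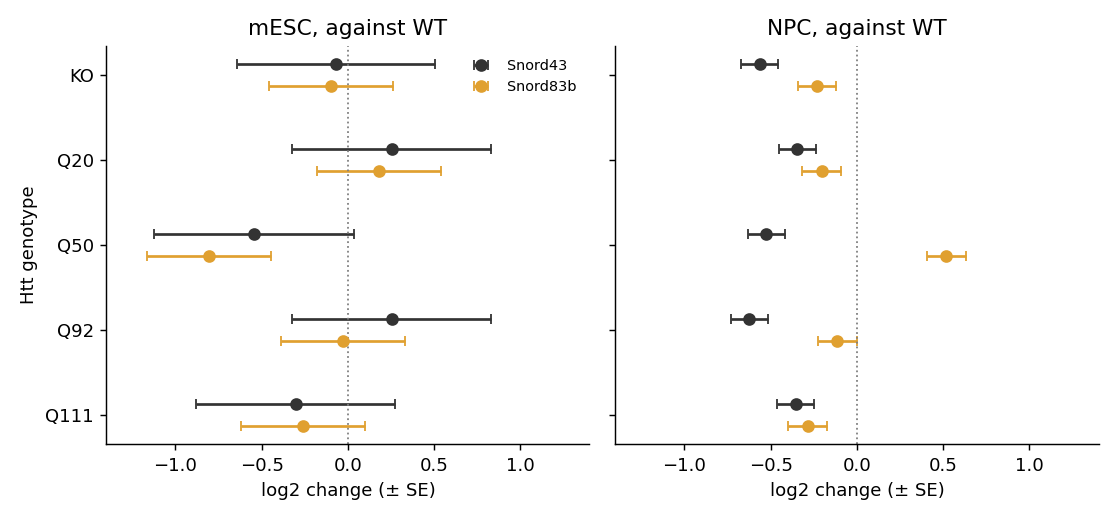
Log2 change of Snord43 and of Snord83b against WT (x axis, edgeR with TMM, bars are SE) for each genotype (y axis) in mESC and in NPC. The NPC values of Snord43 lie between -0.62 and -0.35, and its bars in mESC all span 0.

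The NPC calls against WT depended on single libraries and on the scaling. Scaling by library totals took the call from KO (-0.36, edgeR adjusted p = 0.316), Q20 (-0.35, 0.0919) and Q92 (-0.40, 0.0526). Scaling by the snoRNA-biotype counts took it from KO (-0.25, 0.199) and Q20 (-0.15, 0.214). The KO call was lost without KO replicate 1 (-0.47, adjusted p = 0.0803) and without WT replicate 1 (-0.54, 0.0608). The Q50 call was lost without Q50 replicate 2 (-0.47, 0.0985). The Q20 call was lost without Q20 replicate 1 (-0.32, 0.227), Q20 replicate 2 (-0.55, 0.0604) and WT replicate 1 (-0.32, 0.0909). The Q111 call was lost without any 1 of its 4 libraries, at -0.25 without Q111 replicate 1 (adjusted p = 0.337), -0.46 without Q111 replicate 2 (0.0581), -0.33 without WT replicate 1 (0.159) and -0.38 without WT replicate 2 (0.0544). The Q92 call was kept in each of these omissions. The direction was the same under each scaling and each omission run.

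Snord83b did not follow the same pattern of calls in NPC. It rose in Q50 by 0.52 ± 0.11 (edgeR adjusted p = 0.0109), where Snord43 fell by 0.53. In the other genotypes the log2 change of Snord83b from WT was -0.23 in KO (edgeR adjusted p = 0.435), -0.20 in Q20 (0.237), -0.11 in Q92 (0.485) and -0.28 in Q111 (0.112). In TMM-scaled CPM, Snord83b stood at 32176 and 37351 in the Q50 NPC libraries and at 26194 and 20802 in WT NPC, without overlap. The call of Snord83b in Q50 was lost on library totals (0.24, edgeR adjusted p = 0.258) and on DESeq2 size factors (0.40, 0.0904). Snord43 stood at 22774 and 21542 in Q50 NPC and at 32027 and 29699 in WT NPC, also without overlap. The pair thus lay on opposite sides of WT in Q50 NPC on each of the 4 scalings, and the difference between the changes was not tested.

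The other listed small RNAs differed between genotypes in how many were called in NPC. Among the 12 tested Snord genes of ribosomal protein genes, 8 fell and 1 rose in Q92 by edgeR, with a median of -0.49 (18.8% of all genes called). In Q111, 4 fell and 1 rose, with a median of -0.31 (10.9% of all genes called). None fell in Q20 or Q50, where 1 and 2 rose (12.7% and 6.58% of all genes called). In KO 0 were called (4 of the 12 at an unadjusted p under 0.05, and 1.36% of all genes called). Of the 7 reference small RNAs, 5 fell in Q92 and 3 in Q111, where 1 and 2 rose. In Q20 and in Q50, 1 of the 7 fell and 0 rose. The Q20 call was Snord70, which fell by 0.83 (edgeR adjusted p = 0.00122). The Q92 counts rest on the scaling, since on library totals and on snoRNA-biotype totals 0 of the 12 and 1 of the 7 fell. Counts for the other genotypes also moved. In Q111, 7 of the 12 fell on library totals and 5 on snoRNA-biotype totals. In Q50, 1 of the 12 fell on library totals, and in Q20, 1 fell on DESeq2 size factors. In KO, 1 of the 12 rose on snoRNA-biotype totals. In KO, of the 7 reference small RNAs tested, 1 was called: Snord49a, which fell by 0.48 ± 0.09 (edgeR adjusted p = 0.00800). That call was lost on library totals (-0.28, adjusted p = 0.376) and on snoRNA-biotype totals (-0.16, 0.211). Snord61 had -0.49 (adjusted p = 0.0624) and Snord65 had -0.35 (0.106). Whether the KO effect on Snord43 differed between NPC and mESC was tested in the fit of 24 libraries, and the difference was -0.49 ± 0.56 (SE, edgeR adjusted p = 1.00). No gene was called in that test (0% of 904, with 36 at an unadjusted p under 0.05, and 0 by DESeq2).

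Snord43 showed no detectable slope on CAG repeat number. Over the 8 knock-in libraries of mESC the log2 slope per 10 repeats was -0.02 ± 0.06 (SE, edgeR adjusted p = 0.999, 0% of 1487 genes called, 48 at an unadjusted p under 0.05 and 0 called by DESeq2). In NPC it was -0.00035 ± 0.014 (edgeR adjusted p = 0.993, 6.45% of 403 genes called), with a 95% interval of -0.03 to 0.03. Without the Q20 libraries, which stand apart among the NPC by their markers, the NPC slope was 0.0444 ± 0.019 (unadjusted p = 0.0428 and adjusted p = 0.222 by edgeR). The difference of the slopes was -0.01 ± 0.07 (edgeR adjusted p = 0.985, 1.51% of 663 genes called). In NPC the Q50 libraries had the lowest shares and the Q20 and Q111 libraries, at the ends of the range, had means of 2.48% and 2.26%.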

How the data were processed

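The deposited table holds raw counts per gene, whole numbers made by the authors without normalization. CASAVA 1.8, STAR, HTSeq and GRCm38.p6 are named, without settings, per the submitters' processing notes. Adapter trimming and strand settings are not given in the sources used here. Gene identifiers were matched to GENCODE M21 (GRCm38; 55154 of 55335), and sequences came from its transcripts. The growth protocol, which gives 89 repeats, tied 4 columns headed Q89 to the Q92 samples.

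Counts were tested with edgeR 4.0.16 in R 4.3.3 (glmQLFit and glmQLFTest, TMM, filterByExpr by group minimum count 10, minimum total 15, Benjamini-Hochberg adjustment over all genes tested, calls at 0.05). Genotypes were compared over the 12 libraries of a cell type, NPC with mESC as means of 6 groups over 24 libraries, and slopes over 8 knock-in libraries per cell type. Differences by line used exact sign flips (64), with a pseudocount of 1 in the ratio. DESeq2 1.42.0 was an alternative. Snord43 and the lists were chosen with earlier results of these data known. Genes were named for likeness by the 5 highest correlations, and from the lists by their call and size of change.

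On simulated counts with genes changed by a log2 value of 2, edgeR called 100% of 139 changed genes tested in NPC against mESC, 34.9% of 186 in KO against WT mESC, 90.6% of 180 in KO against WT NPC, 60.5% of 162 for the mESC slope and 79.9% of 159 for the NPC slope. The chi-square between libraries of a group, divided by its degrees of freedom, was 2.02 to 88.3, above counting noise. Differences between replicate 1 and replicate 2 correlated by 0.408 to 0.516 in the 10 pairs of mESC groups without Q20, by at most 0.0784 in the 5 with Q20, and by over 0.1 in 4 of 15 pairs of NPC groups. Since pairing was taken only where every pair exceeded 0.1 and the labels name no shared batch, the number is a block only in an alternative.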

Additional observations from a re-analysis of the deposited data

How the results depend on the processing

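The fall of Snord43 from mESC to NPC kept its direction and its call under 11 alternative settings, from -2.78 without a filter on low counts to -1.50 on snoRNA totals, and from -2.38 to -2.03 with each library left out. The differences by line also kept theirs, with ranges over omissions of -6.37 to -5.43 (share), -8.90 to -7.65 (share of snoRNA counts) and -2.22 to -1.93 (log2 ratio). With the replicate block the change was -2.10, and the block changed no call of Snord43. In mESC, where the numbers went together in the lines other than Q20, the block lowered the SE of the Q50 change from 0.58 to 0.28 and moved it to -0.63 (edgeR adjusted p = 0.721). The adjusted p for any mESC genotype difference became 0.227 (unadjusted 0.0100), and genes called in that test went from 1 to 29, in Q20 against WT mESC from 1 to 25 and in the NPC slope from 26 to 9.

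Against WT in NPC, calls were lost on library totals in KO (-0.36), Q20 (-0.35) and Q92 (-0.40), on snoRNA totals in KO (-0.25) and Q20 (-0.15), and without a filter in KO (-0.95), Q20 (-0.63), Q50 (-0.89) and Q111 (-0.80). Omitting libraries gave -0.66 to -0.47 in KO, -0.55 to -0.32 in Q20, -0.74 to -0.47 in Q50, -0.70 to -0.60 in Q92 and -0.46 to -0.25 in Q111. The adjusted p for any NPC genotype difference was 0.000442 to 0.0123. The causes were not tested.

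In mESC omissions gave -0.77 to 0.45 in KO, -0.16 to 0.80 in Q20, -1.50 to 0.026 in Q50, -0.16 to 0.77 in Q92 and -1.12 to 0.23 in Q111, with none called, and any-genotype adjusted p of 0.998 to 1.00. The KO effect by cell type ran from -1.04 to 0.075. Slopes per 10 repeats changed sign without being called. The NPC slope became 0.000197 with 89 repeats in place of 92, 0.000703 on DESeq2 size factors, 0.000695 in the DESeq2 test, 0.000668 on library totals and 0.0444 without Q20 (adjusted p = 0.222), and -0.011 to 0.014 over omissions. The mESC slope became 0.00218 on snoRNA totals and 0.0703 without Q20, and -0.045 to 0.020 over omissions. The slope difference became 0.0117 on DESeq2 size factors and in the DESeq2 test, 0.0101 on library totals and 0.00316 without a filter, and -0.039 to 0.035 over omissions. For NPC against mESC, the settings with 1 replicate or without Q20 were chosen after seeing the data, as were those without Y RNA rows, snoRNA totals that include Snord43 and the scalings of the lists.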
